A study of Mus musculus with 5 samples.

Results

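The CXC chemokines are small secreted proteins, named for the spacing of their first cysteines, that draw leukocytes along gradients through G protein-coupled receptors. The 10 genes described here are Cxcl1, Cxcl2, Cxcl5, Cxcl9, Cxcl10, Cxcl12, Cxcl13, Cxcl14, Cxcl15 and Cxcl16. They were taken by symbol from the platform annotation with all of their probe sets, which gave 19 of the 45037 non-control probe sets on the array and 10 of 18193 named genes. The genes were chosen by name, with their levels on these arrays and the differences between the arrays already known. Expression was measured on Affymetrix whole-genome mouse arrays. KA/KA mice (3 arrays) carried 2 copies of a knock-in allele, IKKαK44A/K44A, whose IKKα protein has no kinase activity, and WT mice (2 arrays) were their littermates. All mice were 4 weeks old, on the FVB background, and all RNA was labelled as that of B220+ bone marrow cells, enriched on magnetic beads from the tibias and femurs after red cell lysis. The cells were untreated. B220 is a form of CD45 carried by developing B cells. Whether mice were pooled is not given, and the errors below measure the spread between arrays, which may be technical. Arrays go by their labels, as group and number.

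CXC chemokines with a Glu-Leu-Arg sequence before the first cysteine, among them Cxcl1, Cxcl2, Cxcl5 and Cxcl15, attract neutrophils, mainly through Cxcr2. Cxcl9 and Cxcl10 are induced by interferons and attract activated T and NK cells through Cxcr3. Cxcl12, made by marrow stroma, retains stem cells and B-cell precursors in the marrow through Cxcr4, and Cxcl13 guides B cells into follicles through Cxcr5. Cxcl16 is a membrane-bound ligand of Cxcr6, and Cxcl14 is made by epithelia and fibroblasts. IKKα is a kinase of the alternative NF-κB pathway, which in lymphoid stroma drives Cxcl12 and Cxcl13, while Cxcl1, Cxcl2 and Cxcl5 are known targets of NF-κB after inflammatory stimuli.

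3 of the arrays went against their tissue label. Median poly-A control signals were 136 on KA/KA 2, 249 on KA/KA 3 and 46.9 on WT 2, against 11897 on KA/KA 1 and 7305 on WT 1, and this control signal, which carries no mouse RNA, defined the 2 array sets used below. The defining markers of the labelled cells were low on the first set, with 5 or 6 of 8 under the array median. The 8 measured B progenitor markers had medians of 6.04 to 6.37 on these 3 arrays, against 12.42 on KA/KA 1 and 12.49 on WT 1, where values are log2(signal + 16), the scale used throughout. On this scale the lowest possible value is 4, and the median over all probe sets was 6.80 to 7.17 on each array. Alveolar type 2 markers (6 measured) had medians of 13.48 to 14.59, against 6.44 on KA/KA 1 and 6.09 on WT 1. Keratinocyte markers were high on KA/KA 2 alone (median 13.07, with 5.51 to 6.45 on the other 4 arrays). The first set is called lung-like and the other pair marrow-like. These sets are not groups of the study.

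**Figure D1:**
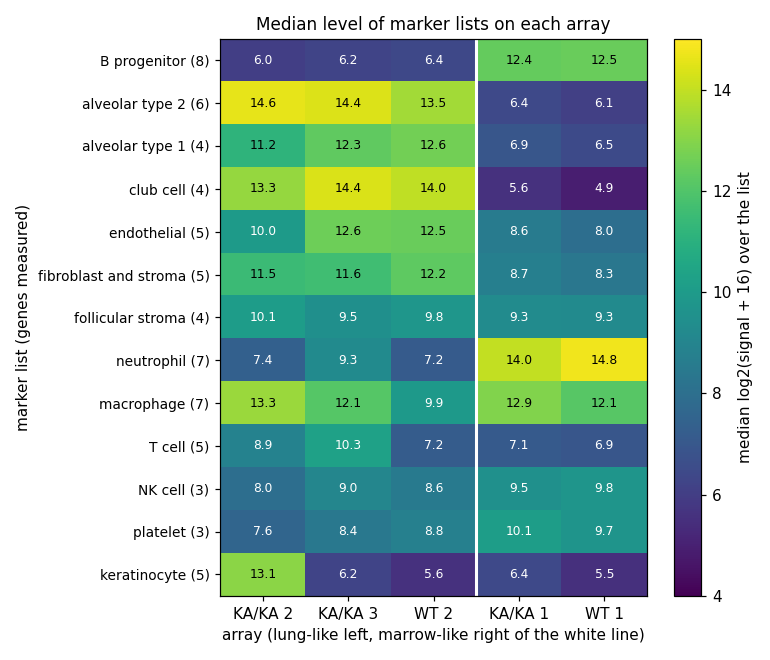
Median log2(signal + 16) of each marker list (rows, with the number of genes measured) on each of the 5 arrays (columns). The lung-like arrays, left of the white line, are low in B progenitor markers and high in alveolar and club cell markers; keratinocyte markers stand at 13.07 on KA/KA 2 alone.

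The array sets were known from measured values when the genes were chosen, so the differences between the sets are described without a test. Of the 19 probe sets, 9 (Cxcl1, Cxcl13, Cxcl15 and Cxcl16) lay over 1 log2 unit higher on the lung-like arrays with no overlap of the sets, a rule met by 16.7% of all probe sets on the array. Another 4 (Cxcl9, Cxcl10 and 1 of 3 of Cxcl12) lay lower in the same way, as did 11.3% of all probe sets. In bulk RNA, more cells of a type and more RNA per cell cannot be told apart. The lung-like arrays had higher medians than the marrow-like pair, and centring the arrays lowers every difference between the sets by one amount: the median difference over all probe sets was 0.07 as scaled and -0.28 after centring.

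**Figure D2:**
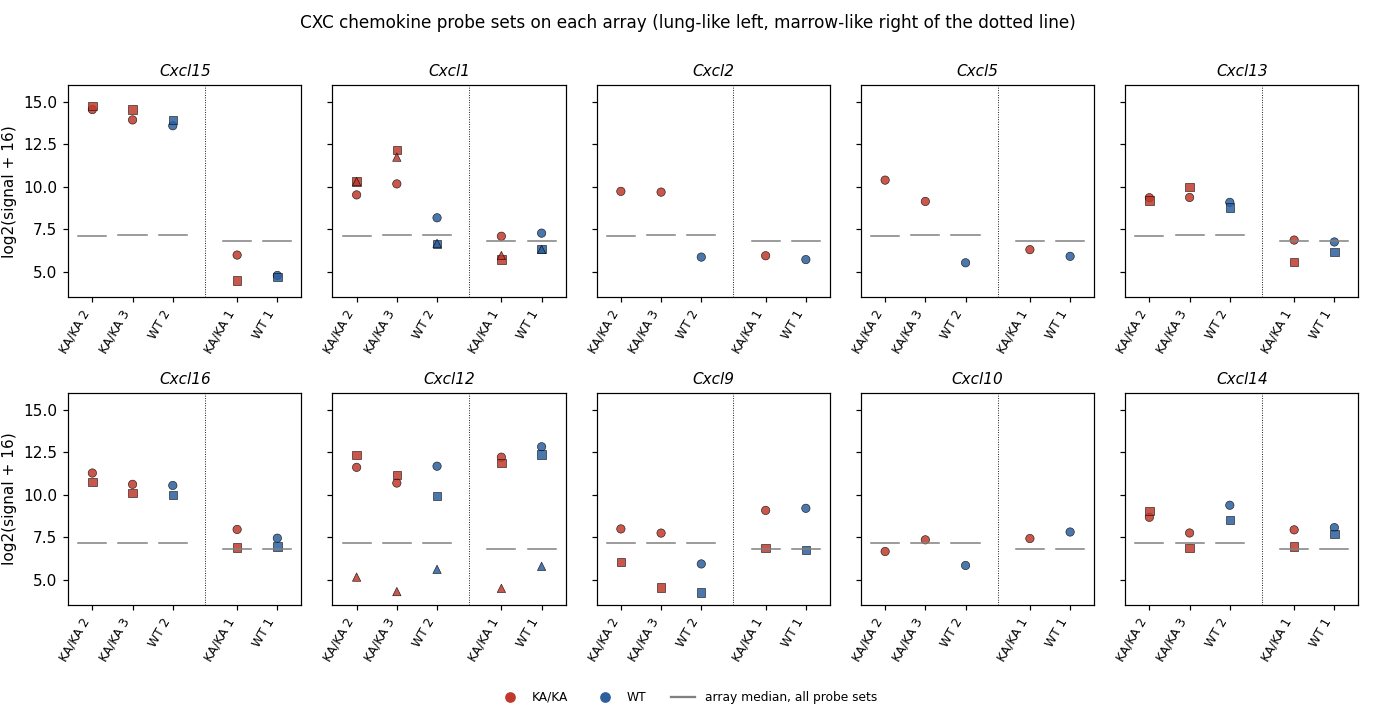
log2(signal + 16) of every probe set of the 10 CXC chemokines on each array, with 1 panel per gene, 1 symbol shape per probe set and a grey line at the array's median. Cxcl15 stands near 14 on all lung-like arrays and near the floor on the marrow-like pair, while Cxcl1, Cxcl2 and Cxcl5 are highest on KA/KA 2 and KA/KA 3; the Cxcl1 probe set 1441855_x_at is above the median on every array (8.18 on WT 2).

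Cxcl15, a neutrophil attractant also called lungkine and made by lung epithelium, had the widest gap between the sets of the 10 genes. Its probe set 1421404_at read 14.75 on KA/KA 2, 14.57 on KA/KA 3 and 13.93 on WT 2, against 4.50 on KA/KA 1 and 4.71 on WT 1. The lung-like arrays averaged 14.42 ± 0.43 (SD, n = 3) and the marrow-like pair 4.60 ± 0.15 (SD, n = 2), a difference of 9.81 log2 units. The other probe set, 1456428_at, differed by 8.65. The low values lie close to the floor of the scale, and the size of the gap therefore depends on the constant added to the signal: 1456428_at differed by 9.41 with a constant of 1 and by 7.52 with 64.

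Inside the lung-like set the Cxcl15 level varied by under 1 log2 unit. KA/KA 2 and KA/KA 3 lay 0.82 and 0.64 above WT 2 for 1421404_at and 0.95 and 0.34 above it for 1456428_at. Among 11391 other genes kept by the filter on dim probe sets, the genes nearest to Cxcl15 in their profile over the 5 arrays, each centred on its own mean, were Sftpc (surfactant protein C; root mean square difference 0.32), Ager (a receptor of alveolar type 1 cells; 0.46) and Scgb3a1 (a secretoglobin of airway cells; 0.51).

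Cxcl1, Cxcl2 and Cxcl5, inducible neutrophil attractants, did not follow Cxcl15: they were high on both lung-like KA/KA arrays and lower on the lung-like WT array. Cxcl1 (1419209_at) read 10.32 on KA/KA 2 and 11.75 on KA/KA 3, against 6.68 on WT 2. Cxcl2 (1449984_at) read 9.74 on KA/KA 2 and 9.69 on KA/KA 3, against 5.87 on WT 2. Cxcl5 (1419728_at) read 10.40 on KA/KA 2 and 9.14 on KA/KA 3, against 5.53 on WT 2. These WT 2 values lay below the median probe set of that array (7.17), but Cxcl1 by its brightest probe set, 1441855_x_at, lay above it at 8.18.

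In the marrow-like pair these 3 genes were likewise lower on both arrays. Cxcl1 (1419209_at) read 5.96 on KA/KA 1 and 6.32 on WT 1. Cxcl2 read 5.95 on KA/KA 1 and 5.72 on WT 1. Cxcl5 read 6.31 on KA/KA 1 and 5.91 on WT 1. These values lay below the array medians, but Cxcl1 by 1441855_x_at read 7.10 on KA/KA 1 and 7.28 on WT 1, above them. For all 5 probe sets of the 3 genes, both lung-like KA/KA arrays were over 1 log2 unit above each of the other 3 arrays. Of all probe sets on the array, 0.626% met this rule, which was chosen after the values were seen and is given as a description.

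The 3 Cxcl1 probe sets pointed the same way but differed in size. Against WT 2, KA/KA 2 and KA/KA 3 differed by 3.64 and 5.08 for 1419209_at, by 3.67 and 5.54 for 1457644_s_at and by 1.35 and 2.00 for 1441855_x_at. The last one, whose name marks probes that can match other transcripts, was the brightest on average and stands for Cxcl1 where 1 probe set per gene is used. By the measure used for Cxcl15, the genes of most like profile to Cxcl2 were Proz (protein Z of coagulation; root mean square difference 0.24), Cxcl5 (0.45) and Chil1 (a chitinase-like protein; 0.53). Chil1 read 14.45 on KA/KA 2 and 13.82 on KA/KA 3, against 11.21 on WT 2. For Cxcl1, by 1441855_x_at, the nearest were Noxo1 (0.16), Adamdec1 (0.20) and the T cell gene Cd3g (0.21), with neither Cxcl2 nor Cxcl5 among them.

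The promoters of Cxcl1 and Cxcl2 are shown because both genes have this profile and both are textbook NF-κB targets. The 250 bases before the RefSeq start site (GRCm38.p6) lie at chr5:90890995-90891244 for Cxcl1 and chr5:90903649-90903898 for Cxcl2, both on the plus strand, and are written 5′ to 3′ with matches to the κB pattern GGGNNNTTCC, on either strand, in capitals; Cxcl15, which lies next to Cxcl1, is shown for comparison (chr5:90794284-90794533, plus strand).
Cxcl1: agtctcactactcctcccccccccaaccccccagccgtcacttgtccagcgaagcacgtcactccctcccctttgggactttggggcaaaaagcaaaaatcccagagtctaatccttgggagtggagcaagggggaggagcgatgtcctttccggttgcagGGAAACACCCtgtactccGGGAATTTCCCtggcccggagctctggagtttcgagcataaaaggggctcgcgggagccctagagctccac
Cxcl2: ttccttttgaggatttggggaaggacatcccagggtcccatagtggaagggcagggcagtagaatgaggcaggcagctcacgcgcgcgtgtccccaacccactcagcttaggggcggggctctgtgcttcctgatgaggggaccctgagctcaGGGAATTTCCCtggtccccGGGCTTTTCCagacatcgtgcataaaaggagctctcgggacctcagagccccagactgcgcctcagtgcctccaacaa
Cxcl15: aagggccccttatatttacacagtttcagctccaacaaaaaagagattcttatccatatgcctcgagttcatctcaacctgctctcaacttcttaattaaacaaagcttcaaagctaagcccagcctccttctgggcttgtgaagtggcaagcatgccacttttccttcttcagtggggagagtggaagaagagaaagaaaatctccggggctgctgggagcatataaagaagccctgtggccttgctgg

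Cxcl1 and Cxcl2 each held 3 matches, of which 2 in each overlap in the run GGGAATTTCCC that both promoters share. The pattern was present in 4.65% of 32851 windows of the same length in the RefSeq table, and, of the 8 members with an entry there, in Cxcl1, Cxcl2 and Cxcl10. A match is a description of the letters and does not show binding, and the patterns were chosen with the levels known. In the RefSeq gene order on chromosome 5, the coding genes Cxcl5, Ppbp, Pf4, Cxcl3, Cxcl15, Cxcl1 and Cxcl2 follow each other directly. Cxcl15 thus stands between Cxcl3 and Cxcl1; on WT 2 it read 13.93 by 1421404_at, while Cxcl3 read 5.56 and Cxcl1 6.65 to 8.18 by its 3 probe sets.

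Cxcl3, a further neutrophil attractant of this cluster and not among the 10 genes, read 8.82 on KA/KA 2 and 7.13 on KA/KA 3, against 5.56 on WT 2. It failed the filter on dim probe sets and was not tested, and on KA/KA 3 it lay just under the array median of 7.16. The platelet chemokines ran otherwise: Pf4 read 10.25 on KA/KA 2 and 10.95 on KA/KA 3, against 10.81 on WT 2, and Ppbp read 10.06 on KA/KA 2 and 10.84 on KA/KA 3, against 11.42 on WT 2.

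Several marker lists of other cells also differed between KA/KA and WT inside the lung-like set, and their part in the result was not tested. The summed signal of 7 macrophage markers was 59000 on KA/KA 2 and 31470 on KA/KA 3, against 12410 on WT 2, with 7 of 7 higher in the KA/KA mean. That of 7 neutrophil markers was 31900 on KA/KA 2 and 70220 on KA/KA 3, against 5884 on WT 2, with 5 of 7 higher. Only 2 of the 7 were over 1 log2 unit higher on both KA/KA arrays. The median of the neutrophil list was 7.38 on KA/KA 2 and 9.27 on KA/KA 3, against 7.16 on WT 2. T cell markers summed to 2417 on KA/KA 2 and 5023 on KA/KA 3, against 1098 on WT 2 (5 of 5 higher). Keratinocyte markers summed to 46470 on KA/KA 2 and 288.9 on KA/KA 3, against 275.2 on WT 2. On the marrow-like pair neutrophil markers summed to 113500 on KA/KA 1 and 171900 on WT 1. Endothelial markers ran the other way, with sums of 5507 on KA/KA 2 and 24020 on KA/KA 3, against 32020 on WT 2 (0 of 5 higher). Of the alveolar markers, 6 of 6 of type 2 and 1 of 4 of type 1 were higher in the KA/KA mean, with median differences of 0.81 and -0.90.

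**Figure D3:**
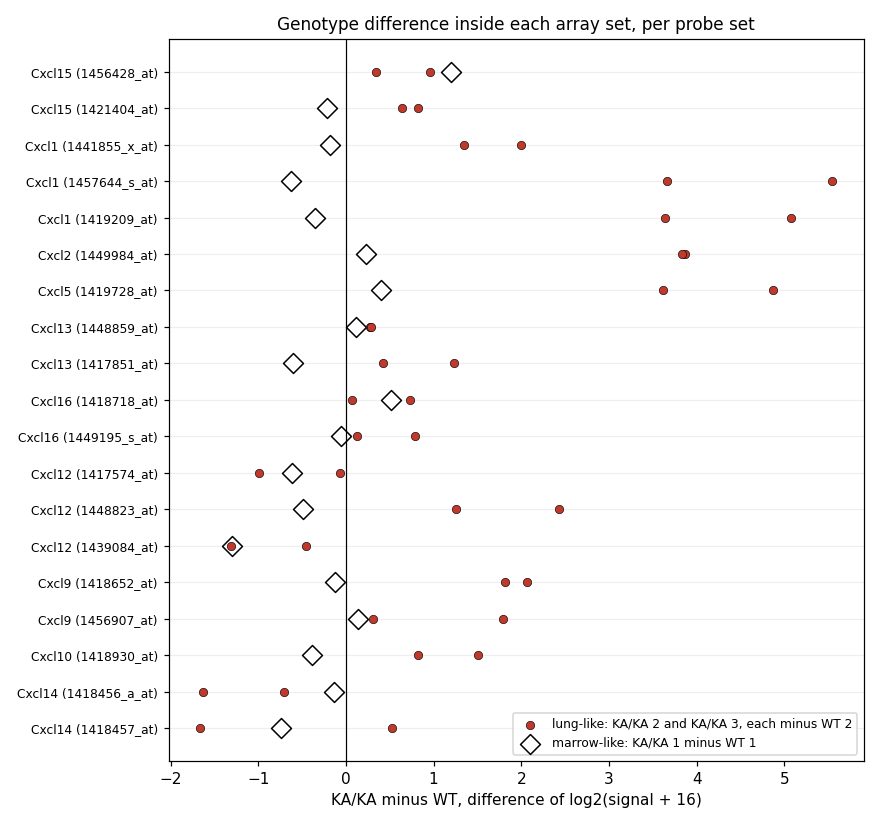
Difference in log2(signal + 16) between KA/KA and WT arrays inside each array set, for every probe set of the 10 genes. Filled points are the 2 lung-like KA/KA arrays, each minus WT 2, and open diamonds the marrow-like pair; Cxcl1, Cxcl2 and Cxcl5 lie between 1.35 and 5.54 in the lung-like set and between -0.62 and 0.40 in the pair.

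Cxcl13, the follicular B cell attractant, was higher on all lung-like arrays. Its probe set 1448859_at read 9.36 on KA/KA 2, 9.38 on KA/KA 3 and 9.09 on WT 2, against 6.87 on KA/KA 1 and 6.76 on WT 1. The second probe set, 1417851_at, read 9.20 on KA/KA 2, 10.01 on KA/KA 3 and 8.78 on WT 2, against 5.57 on KA/KA 1 and 6.17 on WT 1. The sets did not overlap for either, with differences of 2.46 and 3.46 log2 units, and the KA/KA arrays lay 0.27 to 1.23 above WT 2. The genes nearest in profile to Cxcl13 were Serping1 (the C1 inhibitor; root mean square difference 0.11), Cyp4v3 (0.11) and Itgbl1 (0.12).

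Cxcl16 behaved in the same way between the sets. Its probe set 1418718_at read 11.27 on KA/KA 2, 10.61 on KA/KA 3 and 10.54 on WT 2, against 7.95 on KA/KA 1 and 7.44 on WT 1, a difference of 3.11. The second, 1449195_s_at, differed by 3.36. The nearest gene in profile was Stab1, a scavenger receptor of macrophages and sinusoidal endothelium, at 0.12. Adam10 and Adam17, the proteases that release Cxcl16 from the membrane, differed by -0.78 and 0.07 between the sets.

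Cxcl12 was bright on all 5 arrays, and its probe sets did not order the arrays in the same way. 1417574_at read 11.61 on KA/KA 2, 10.68 on KA/KA 3 and 11.68 on WT 2, against 12.21 on KA/KA 1 and 12.82 on WT 1. 1448823_at read 12.35 on KA/KA 2, 11.17 on KA/KA 3 and 9.91 on WT 2, against 11.88 on KA/KA 1 and 12.37 on WT 1. The first placed the lung-like arrays below the marrow-like pair without overlap (-1.19) and the second left them overlapping (-0.98).

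Inside the lung-like set the 2 bright Cxcl12 probe sets disagreed in direction. KA/KA 2 and KA/KA 3 differed from WT 2 by -0.07 and -0.99 for 1417574_at and by 2.43 and 1.26 for 1448823_at. In the marrow-like pair both were lower on the KA/KA array, with differences of -0.61 and -0.49. The third probe set, 1439084_at, lay below the median of every array and its differences (-1.30 in the pair) concern background levels. By the brightest probe set the nearest genes in profile were Taf12 (0.15), Kcnj11 (0.16) and Siva1 (0.18), all of them lower on the lung-like arrays.

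Cxcl9 and Cxcl10, the interferon-induced ligands, were lower on the lung-like arrays. Cxcl9 (1418652_at) read 7.98 on KA/KA 2, 7.74 on KA/KA 3 and 5.92 on WT 2, against 9.07 on KA/KA 1 and 9.19 on WT 1. Cxcl10 (1418930_at) read 6.65 on KA/KA 2, 7.34 on KA/KA 3 and 5.83 on WT 2, against 7.42 on KA/KA 1 and 7.80 on WT 1. The lung-like arrays were lower without overlap by 1.92 and 1.00 log2 units, although Cxcl10 failed the filter on dim probe sets. For Cxcl10 the sets nearly met, and its difference only just passed 1 log2 unit. That difference was -0.61 without WT 2, -0.81 without WT 1, -0.71 with a constant of 64 and -1.35 after median centring.

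Inside the lung-like set both genes were higher on the KA/KA arrays. Cxcl9 differed by 2.06 and 1.82 from WT 2 and Cxcl10 by 0.82 and 1.51, whereas in the marrow-like pair the differences were -0.12 and -0.38. The dim second Cxcl9 probe set, 1456907_at, differed by 1.79 and 0.30. Cxcl11, the third ligand of Cxcr3, read 7.09 on KA/KA 2 and 6.62 on KA/KA 3, against 5.11 on WT 2. It also failed the filter on dim probe sets and was not tested. The interferon γ gene Ifng was near background on all arrays (4.37 to 5.89), and of 6 measured genes of its axis 4 were higher in the lung-like KA/KA mean, with a median difference of 0.48, against 47.0% of all genes and a median of -0.04. Of those 4, Ifng and Socs1 failed the filter on dim probe sets. Among the genes of the axis that passed it, Ifngr2 and Irf1 were higher (by 0.85 and 0.12), while Ifngr1 and Gbp2 were lower (-0.21 and -0.25).

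The Cxcl10 promoter is shown because its letters hold both the κB pattern and the interferon-response pattern GAAANNGAAA, which was found in 2.98% of the windows and, of the 8 members with an entry, in Cxcl10 and Cxcl14 but not in Cxcl9. It lies at chr5:92348890-92349139 on the minus strand (GRCm38.p6, RefSeq), with matches on either strand in capitals: the first is the interferon-response pattern and the other 2 the κB pattern.
Cxcl10: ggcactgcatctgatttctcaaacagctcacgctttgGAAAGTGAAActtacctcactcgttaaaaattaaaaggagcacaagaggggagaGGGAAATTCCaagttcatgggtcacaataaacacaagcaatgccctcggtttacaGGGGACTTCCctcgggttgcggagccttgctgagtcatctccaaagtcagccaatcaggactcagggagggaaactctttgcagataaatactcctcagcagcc

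Cxcl14 separated neither the sets nor the genotypes. Its probe set 1418456_a_at read 8.67 on KA/KA 2, 7.74 on KA/KA 3 and 9.38 on WT 2, against 7.93 on KA/KA 1 and 8.06 on WT 1. The second, 1418457_at, read 9.05 on KA/KA 2, 6.86 on KA/KA 3 and 8.52 on WT 2, against 6.94 on KA/KA 1 and 7.68 on WT 1. For both probe sets KA/KA 3 was the lowest of the lung-like set, and the sets overlapped. Lum, a collagen-binding proteoglycan of fibroblasts, was nearest in profile (0.17).

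Over all arrays, no difference between KA/KA and WT passed the test. Of the 19 probe sets 16, from 9 of the 10 genes, passed the filter on dim probe sets and were tested. limma called 0 of them and 0 of the 22519 probe sets tested (0% higher and 0% lower at an adjusted p under 0.05), with 47 probe sets, 0 of them of these genes, at an unadjusted p under 0.05. With array set as a blocking term there were again 0 calls (0% in each direction), with 673 at an unadjusted p under 0.05, 3 of them of these genes. With 10 ways to split the arrays 3 against 2, the smallest p of an exact permutation test is 0.1, and none was run.

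Among the 16 tested probe sets of these genes, the largest difference over all arrays was that of Cxcl1 by 1457644_s_at, at 2.91 ± 1.94 (SE), while 1419209_at gave 2.85 ± 1.77 and 1441855_x_at 1.20 ± 1.02 (limma adjusted p = 0.9999 for all 3). Cxcl15 (1421404_at) had the largest error, at 1.95 ± 4.30 (SE; limma adjusted p = 0.9999). Cxcl5 averaged 8.62 ± 2.10 on KA/KA arrays (SD, n = 3) and 5.72 ± 0.27 on WT arrays (SD, n = 2), a difference of 2.90 ± 1.26 (SE; limma adjusted p = 0.9999), and of 2.59 ± 0.86 with the array set as a block (limma adjusted p = 0.9996). Cxcl2 differed by 2.67 ± 1.30, and by 2.30 ± 0.76 with the block, at the same adjusted p-values. Cxcl2, Cxcl5 and Cxcl1 by 1419209_at and 1457644_s_at read under the filter's cut of 7.04 on every array but KA/KA 2 and KA/KA 3. They were tested only because of those arrays. Without WT 2 the blocked differences were 0.40 for Cxcl5 and 0.23 for Cxcl2, and without KA/KA 1 or WT 1 they were 4.24 and 3.85. Cxcl2 and Cxcl5 were the members whose KA/KA arrays all lay above both WT arrays, as did 5.33% of all probe sets. The one member probe set lower in that way was the dim Cxcl12 1439084_at, as were 4.95% of all. For Cxcl2 and Cxcl5, too, the margin rests on dim values. On KA/KA 1 Cxcl2 read 5.95, against 5.87 on WT 2, and Cxcl5 6.31, against 5.91 on WT 1, all below the array medians. Of the 10 genes 8 had a higher mean on the KA/KA arrays, with a median difference of 0.83, against 54.2% of all genes and a median of 0.04. Without WT 1 the count was 5 of 10.

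Inside the lung-like set 7 of the 19 probe sets, of Cxcl1, Cxcl2, Cxcl5, Cxcl9 and Cxcl12, were over 1 log2 unit higher on both KA/KA arrays than on WT 2, as were 2.96% of all probe sets. None was lower by that rule (2.56% of all). The limma fit with a mean for each genotype in each set put the Cxcl2 difference at 3.85 ± 0.42 (SE) and that of Cxcl5 at 4.24 ± 0.65. For Cxcl1 the difference was 4.36 ± 0.69 by 1419209_at and 1.67 by 1441855_x_at. No probe set passed that test in either direction (0%). These values rest on a single WT array, and without it no lung-like comparison exists. Only KA/KA 2 and KA/KA 3 share a mean in this fit. Its errors thus come from the spread of those arrays and limma's pooling across probe sets, and hold no spread between WT arrays. Cxcl2, Cxcl5 and Cxcl1 by 1419209_at also passed the filter only through KA/KA 2 and KA/KA 3, the arrays compared here.

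In the marrow-like pair the neutrophil attractants showed no such gap. By over 1 log2 unit, 1 of the 19 probe sets was higher on KA/KA 1 (Cxcl15, 1456428_at, by 1.20) and 1 lower (Cxcl12, 1439084_at), both at dim levels, as were 5.62% and 4.08% of all probe sets. The test of whether the genotype difference itself differs between the sets called 0 probe sets (0% in each direction). The estimate was 3.62 ± 0.64 (SE) for Cxcl2 and 4.72 ± 1.05 (SE) for Cxcl1 by 1419209_at. Both passed the filter only through KA/KA 2 and KA/KA 3. These errors, too, hold no spread between WT arrays, as each set has 1 WT array. By 1441855_x_at, Cxcl1 differed less, by 1.67 in the lung-like set and by -0.18 in the pair.

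The receptors of these ligands were lower or higher on the lung-like arrays by receptor. Cxcr4, the Cxcl12 receptor, read 11.57 on KA/KA 2, 11.71 on KA/KA 3 and 10.73 on WT 2, against 13.03 on KA/KA 1 and 13.44 on WT 1. Cxcr5, the Cxcl13 receptor of B cells, read 7.38 on KA/KA 2, 8.75 on KA/KA 3 and 7.28 on WT 2, against 10.03 on KA/KA 1 and 10.07 on WT 1. Both lay lower without overlap, while their ligands differed from each other in direction: Cxcl13 was higher and Cxcl12 lower or overlapping.

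Cxcr6, the receptor of Cxcl16, was higher together with its ligand. It read 10.02 on KA/KA 2, 9.18 on KA/KA 3 and 7.94 on WT 2, against 6.49 on KA/KA 1 and 7.34 on WT 1. Ackr3, a scavenging receptor of Cxcl12, read 10.71 on KA/KA 2, 10.76 on KA/KA 3 and 11.25 on WT 2, and averaged 5.22 higher there than on the marrow-like pair, where WT 1 read 5.37. Ackr1, which binds inflammatory chemokines on venules and red cells, read 8.99 on KA/KA 2, 9.52 on KA/KA 3 and 6.97 on WT 2, against 8.78 on KA/KA 1 and 8.70 on WT 1, so WT 2 was the low one.

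Cxcr2, the neutrophil receptor of Cxcl1, Cxcl2 and Cxcl5, read 7.14 on KA/KA 2, 8.42 on KA/KA 3 and 5.74 on WT 2, against 8.16 on KA/KA 1 and 8.54 on WT 1. Cxcr3 read 8.30 on KA/KA 2, 9.33 on KA/KA 3 and 8.18 on WT 2, against 9.06 on KA/KA 1 and 9.05 on WT 1. Inside the lung-like set 6 of the 7 measured receptors had a higher KA/KA mean, against 47.0% of all genes, with a median difference of 0.91. Of the 7, 3 (Cxcr2, Cxcr6 and Ackr1) were over 1 log2 unit higher on both KA/KA arrays, as were 638 of all 18193 genes. No receptor passed limma's test in any of the fits.

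**Figure D4:**
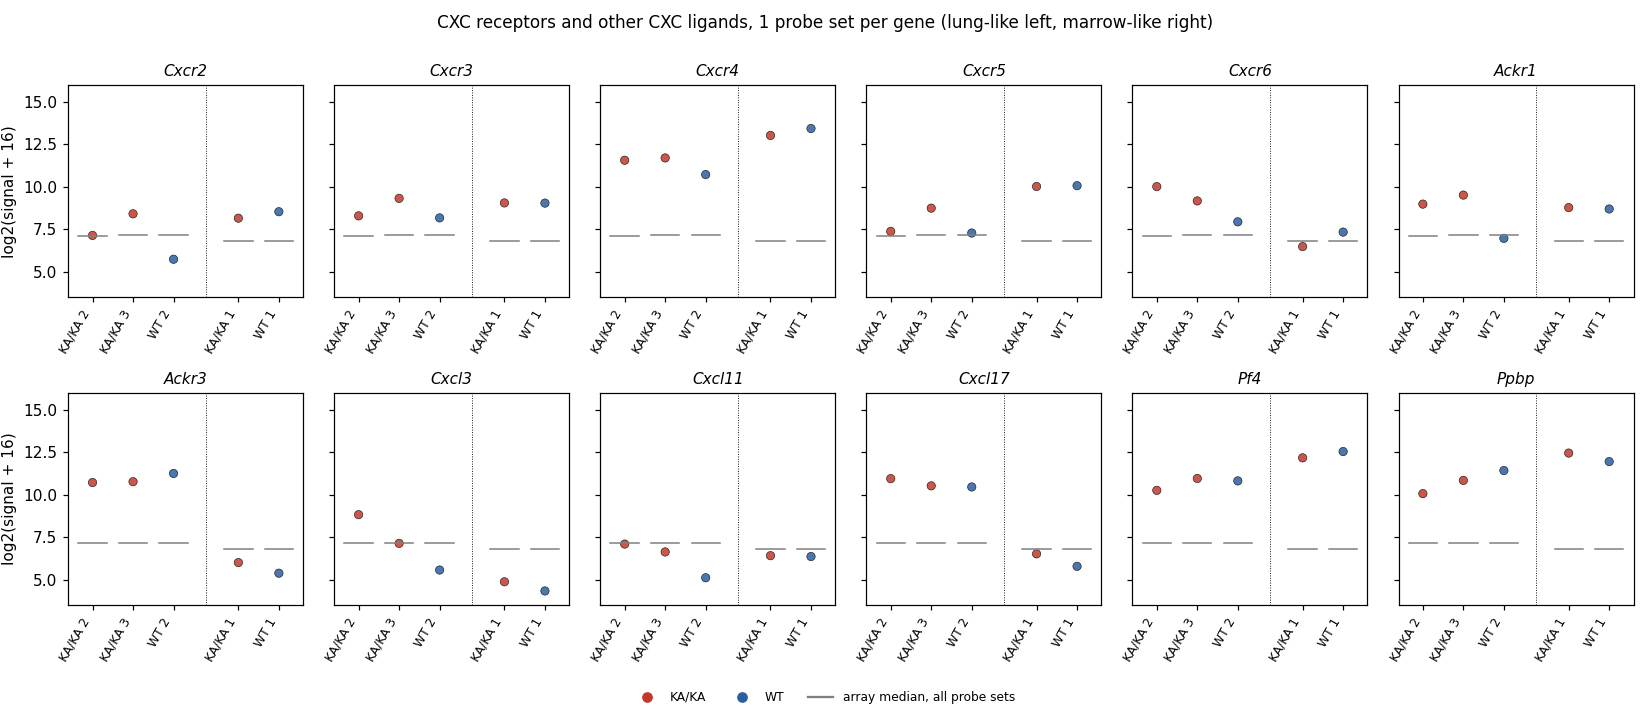
log2(signal + 16) of 7 CXC receptors and 5 other CXC ligands on each array, with 1 probe set per gene and a grey line at the array's median. Cxcr4 and Cxcr5 are lower on the lung-like arrays and Cxcr6, Ackr3 and Cxcl17 higher; Cxcr2, Ackr1, Cxcl3 and Cxcl11 are lower on WT 2 than on the lung-like KA/KA arrays.

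Among the other ligands, Cxcl17, a mucosal chemokine of airways, was higher on all lung-like arrays: it read 10.94 on KA/KA 2, 10.52 on KA/KA 3 and 10.45 on WT 2, against 6.51 on KA/KA 1 and 5.78 on WT 1. Of the enzymes that trim or release these ligands, the neutrophil collagenase Mmp8 read 9.72 on KA/KA 2, 10.53 on KA/KA 3 and 7.04 on WT 2, against 10.66 on KA/KA 1 and 11.40 on WT 1. Dpp4, which clips Cxcl9, Cxcl10 and Cxcl12, read 10.21 on KA/KA 2, 10.14 on KA/KA 3 and 11.23 on WT 2, against 11.66 on KA/KA 1 and 11.75 on WT 1, and was thus over 1 log2 unit lower on both lung-like KA/KA arrays than on WT 2.

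The listed NF-κB inducers and factors, with the inhibitor gene Nfkbia counted among them, mostly had a higher mean on the lung-like KA/KA arrays. Of the 8 tested, 0 passed limma's test. Of 12 measured NF-κB inducers and factors 10 had a higher KA/KA mean there, with a median difference of 1.00, against 47.0% of all genes and a median of -0.04; 8 of the 12 passed the filter on dim probe sets, Il6 and Tnf not among them. Il6 read 8.35 on KA/KA 2 and 6.67 on KA/KA 3, against 4.79 on WT 2, and Tnf read 6.72 on KA/KA 2 and 8.32 on KA/KA 3, against 5.15 on WT 2. Il1b, the gene of interleukin 1β, read 9.62 on KA/KA 2 and 11.68 on KA/KA 3, against 8.91 on WT 2, and was highest on KA/KA 3, as was Cxcl1. Of the alternative pathway, Relb differed by 1.01 and 1.39 and Nfkb2 by 0.80 on both arrays; in the marrow-like pair Relb differed by 0.82 and Nfkb2 by 0.80.

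The listed genes tied to that pathway in lymphoid stroma did not differ together. Of 4 measured genes of that list 2 had a higher KA/KA mean in the lung-like set (Cxcl13 by 0.28 and Madcam1, an adhesion molecule of venules, by 0.59) and 2 a lower one (Cxcl12, at -0.53, and Tnfsf13b, the B cell survival factor BAFF, at -0.47). Madcam1 lay below the median of every array and failed the filter on dim probe sets. For Cxcl12 the sign rests on the probe set, since 1448823_at gave 1.85. In the marrow-like pair 1 of the 4 was higher, and 0 of the 3 tested passed limma's test.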

How the data were processed

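The authors deposited 1 intensity per probe set and array for 45101 probe sets, and the submitters' processing notes name MAS5. The series text speaks of a log2 transformation, but the deposited intensities were linear, with a trimmed mean of 500 on each array (2% left out at each end), so log2(signal + 16) was computed from them. No detection calls were used here, and the number of arrays limits the precision. Of 45037 non-control probe sets, 34945 had 1 gene symbol, 932 several and 9160 none in the platform annotation. Promoter sequences are RefSeq's, on GRCm38.p6; 8 of the 10 genes had an entry, and Cxcl5 and Cxcl16 are named only.

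limma 3.58.1 in R 4.3.3 (lmFit, eBayes with an intensity trend, two-sided, Benjamini-Hochberg over all probe sets tested, threshold 0.05) compared KA/KA with WT on 22519 probe sets, those whose mean level reached the median. Further fits had the array set as a block (2 residual degrees of freedom), or a mean for each genotype in each set (1 residual degree of freedom). The array sets came from 24 poly-A control probe sets, with a border at a log2 signal of 10. Where a gene has several probe sets, the one with the highest mean stands for it in counts of genes. The fits were tested on simulated data. The members, lists, array sets and tests were chosen with earlier results of these data known. All genes of the lists on ligands, receptors, processing, NF-κB, interferon γ and lymphoid stroma were counted or named, of marker lists only summaries, and for each tested gene up to 3 genes of most like profile. Cxcr1, Nfkb1, Ccl19 and Ccl21a were not analysed here. Alternatives were constants of 1 and 64, quantile normalization, median centring, other filters, 1 probe set per gene, eBayes without trend or robust, a block for replicate number, and fits without each array in turn.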

Additional observations from a re-analysis of the deposited data

How the results depend on the processing

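Among the 10 genes and the counts, constants of 1 and 64, quantile normalization, median centring, other filters, 1 probe set per gene and eBayes without trend or robust turned no direction and moved no count by over 1.5 times, although the set difference of Cxcl15 went to 9.41 and 7.52 with constants of 1 and 64, and that of Cxcl13 (main 2.46) to between 2.06 and 2.63. Leaving out 1 array did. Over all arrays, the KA/KA minus WT difference ran from -0.55 to 1.78 for Cxcl13, from -2.11 to 6.71 for Cxcl15 and from -0.60 to 2.51 for Cxcl16, negative without WT 1; it ran from -0.93 to 2.34 for Cxcl9 and from -1.26 to 0.053 for Cxcl14, with the sign turned without WT 2. With the array set as a block, Cxcl1 by 1441855_x_at ran from -0.18 to 1.67 and Cxcl9 from -0.12 to 1.94. Both were negative without WT 2, which leaves the marrow-like pair as the only comparison. Cxcl5 ran from 0.40 to 4.24 and Cxcl2 from 0.23 to 3.85, lowest without WT 2 and highest without KA/KA 1 or WT 1. The count of genes higher in KA/KA ran from 5 to 8 of 10 in both fits, at 5 without WT 1 (no block) or WT 2 (block). The count of genes over 1 log2 unit lower on the lung-like arrays ran from 1 to 3, at 1 without WT 1. With the block, probe sets called ran from 0 to 7 of all tested, at 7 without KA/KA 2 and 2 without KA/KA 3, and 0 of them were of the 10 genes. With the replicate number as a block, limma called 3 probe sets, 0 of them of the 10 genes, and no other call changed. Deviations of same-numbered arrays from their group means correlated at 0.87 and 0.648 across probe sets. The differently numbered KA/KA 3 and WT 2 correlated at 0.773. With only 2 WT arrays, the WT deviations are mirror images of each other. Number 1 falls in the marrow-like pair and number 2 in the lung-like set, and nothing in the labels pairs the mice. Signals near background limit Cxcl10, 1 probe set each of Cxcl9 and Cxcl12, and the low side of Cxcl1, Cxcl2, Cxcl5 and Cxcl15.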
